A study of Caenorhabditis elegans with 6 samples.

Results

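Tubulin genes encode the alpha and beta subunits that pair into the building block of microtubules, and 8 of them were examined here. The rule that picks them names gene identifiers and uses no measured value, although the set was chosen with earlier results of these data known. The set comprises the general alpha tubulins tba-1, tba-2 and tba-4, the general beta tubulins tbb-1 and tbb-2, and the beta tubulin tbb-4. The touch neuron pair of mec-7 (beta) and mec-12 (alpha) completes it. Of these 8 genes, 6 were among the 5739 genes of the deposited table. tbb-4 and mec-12 were not listed, and a gene that was not listed need not have been low.

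Microtubules carry the transport of vesicles and organelles along axons and dendrites and form the spindle of dividing cells. In C. elegans, tba-1, tba-2, tbb-1 and tbb-2 are expressed broadly and serve the early embryonic spindle with overlapping roles, while mec-7 and mec-12 supply the unusually wide microtubules of the touch receptor neurons, which sense gentle touch to the body. Worms that lack mec-7 function are touch insensitive, which is how the gene was found.

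The data come from polysome immunoprecipitation, in which a tagged ribosomal protein, RPL-18, is expressed in 1 tissue and pulled from a lysate of whole animals together with the messenger RNA on its ribosomes. The compared groups were alg-2(ok304) worms, which carry an allele of the Argonaute gene alg-2, and wild-type worms, each as 3 libraries, which the study's methods call biological triplicates, from large pooled populations of synchronized L4 larvae grown at 20 degrees, and all with a single-copy transgene on chromosome IV that expresses tagged RPL-18 from the neuronal rgef-1 promoter. The transgene of both strains ends in the tbb-2 3′ untranslated region, so that reads counted on tbb-2 can stem from the transgene as well as from the gene. Beads against FLAG were used, but in the study's strain list the mutant strain carries HA in place of FLAG, and the table heads the columns of the mutant strain as a knockout of alg-1; the groups are named here as in the sample labels. No input RNA and no immunoprecipitation from untagged worms was analysed here, so enrichment over whole animals was not measured.

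The value of each library is called fitted reads, because it was not a read count. Within alg-2(ok304), library 2 was 1.17 times and library 3 was 2.24 times library 1 in every gene above 0, and within wild type these factors were 1.40 and 1.52. The replicates thus share 1 fitted level per gene and group, so that no spread between replicates and no test can be had from them, and a high level does not show whether all 3 libraries held reads of that gene. Each gene's 3 values were added up within a group. Ribosomal RNA took 85.1% of the fitted reads in alg-2(ok304) and 97.9% in wild type, and protein-coding genes away from the ribosomal RNA genes held 718756 fitted reads in alg-2(ok304) and 135399 in wild type. Levels are given in fitted reads per 1000000 of these (FPM). Most of the fitted reads outside ribosomal RNA lay on genes beyond this set in both groups. Unscaled values were higher in alg-2(ok304) for most genes, so ratios between the groups need a scale. Here a gene's log2 ratio of alg-2(ok304) over wild type is given relative to the median gene, whose unscaled log2 ratio over the 2659 genes above 0 in both groups was 1.93. Scaling by the totals of every listed gene would take -1.11 as the level of no difference instead of 1.93. This raises every log2 ratio by the distance between these 2 values. The targeted gene, alg-2, had 11.1 fitted reads in alg-2(ok304) and 16.6 in wild type. Its log2 ratio was -2.51 relative to the median gene and 0.54 by the totals of all genes, so that its direction depends on the scale and does not check the labels.

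Among these 6 genes, mec-7 alone had a value of 0 in alg-2(ok304), against a high level in wild type. mec-7 (WBGene00003171), the beta tubulin of touch receptor neurons, lies on chromosome X at 7774856 to 7776689 of WBcel235 on the minus strand, and no other annotated gene overlaps it. It was listed at 0 in all 3 alg-2(ok304) libraries, against 15.1, 21.1 and 22.9 fitted reads in wild-type libraries 1 to 3. All 3 wild-type values lay above all 3 alg-2(ok304) values, which are copies of 1 fitted level of 0. In wild type its sum of 59.0 fitted reads, or a level of 436 FPM, placed mec-7 at rank 283 of 5456 protein-coding genes. A fold cannot be given against a value of 0.

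Being listed at 0 in alg-2(ok304) and above 0 in wild type held for 295 of 5739 genes, 5.14%. Among the 6 tubulin genes listed it held for 1, mec-7. Only the 2954 genes above 0 in wild type could meet this condition, so its share among them was larger. Among the 342 genes with at least the wild-type sum of mec-7, 13 were listed at 0 in alg-2(ok304), 3.80%. This cutoff is the value of mec-7 itself, and mec-7 is among the 13. The share is therefore a description and does not measure how unusual mec-7 was. Because the 2 levels are fits without a visible spread, the difference in mec-7 has no error and was not tested. In material taken from whole animals, fewer cells that express mec-7 and less mec-7 RNA in each of them cannot be told apart. The fitted level also does not show whether every wild-type library held mec-7 reads.

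**Figure D1:**
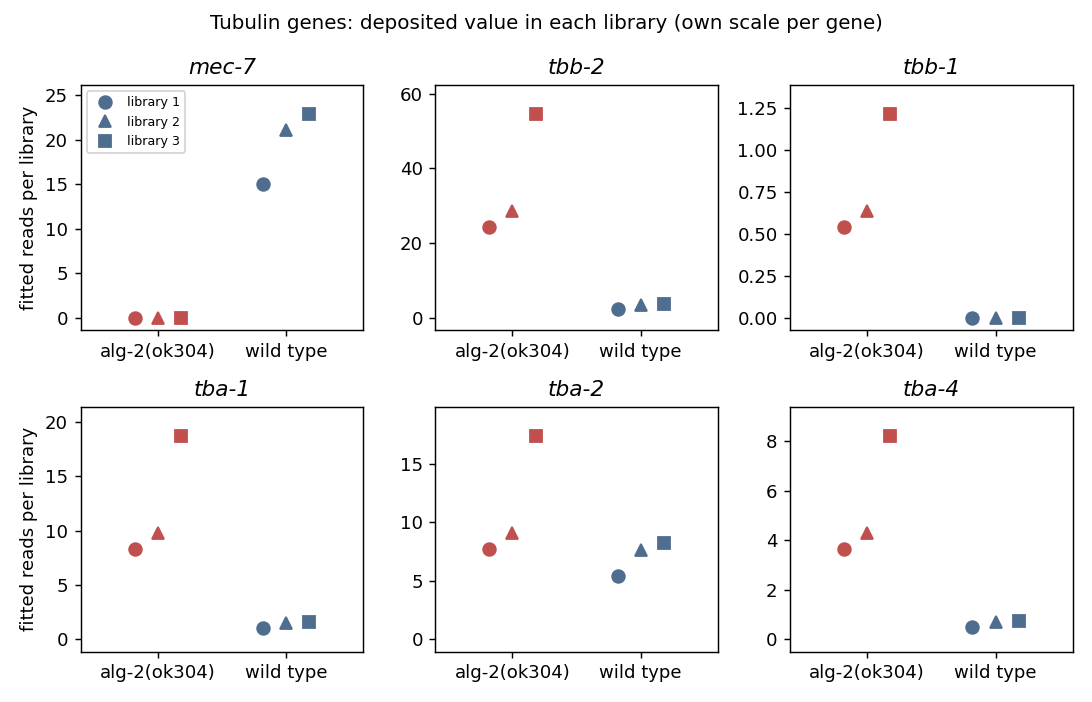
Deposited values of the 6 listed tubulin genes, in fitted reads per library, on a vertical axis of its own for each gene; alg-2(ok304) is in red, wild type in blue, and the marker shape gives the library. mec-7 sits at 0 in the 3 alg-2(ok304) libraries and between 15.1 and 22.9 in the wild-type libraries; the like spacing of the markers in every panel is the fixed factor of each library.

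Of the general beta tubulins, tbb-2 stood highest. tbb-2 (WBGene00006537; chromosome III, 4015910 to 4017627, minus strand) is a main beta tubulin of the embryo and most tissues, and its span contains 1 piRNA gene, 21ur-13952. It had 24.3, 28.5 and 54.6 fitted reads in the alg-2(ok304) libraries and 2.40, 3.36 and 3.65 in the wild-type libraries, and these unscaled values of the groups did not overlap, which would also hold for a gene at the median ratio. Its log2 ratio was 1.58, a 3.0-fold higher level in alg-2(ok304). Its part from the transgene was not separated.

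tbb-1 (WBGene00006536; chromosome III, 10740868 to 10742432, minus strand), which acts alongside tbb-2 in the early embryo, was barely present. It had 0.541, 0.635 and 1.22 fitted reads in the alg-2(ok304) libraries and was listed at 0 in wild type. Listing at 0 in wild type and above 0 in alg-2(ok304) was common, with 1832 of 5739 genes, 31.9%. In alg-2(ok304) the fitted reads of tbb-2 were 44.9 times those of tbb-1. These paralogs are similar in sequence, and the sources do not say how reads that match both were counted, so the split between them is uncertain.

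The alpha tubulins differed among themselves, with tba-1 and tba-4 on 1 side of the median gene and tba-2 on the other, except by the totals of every listed gene, where all lay above it. tba-1 (WBGene00006528; chromosome I, 9785781 to 9787624, minus strand) had 8.35, 9.80 and 18.7 fitted reads in the alg-2(ok304) libraries and 1.07, 1.50 and 1.63 in the wild-type libraries. Its log2 ratio was 1.21, a 2.31-fold higher level in alg-2(ok304); its unscaled values lay apart, as those of a gene at the median ratio would. tba-2 (WBGene00006529; chromosome I, 12964674 to 12966795, minus strand), its close paralog, had 7.74, 9.08 and 17.4 fitted reads in the alg-2(ok304) libraries and 5.43, 7.59 and 8.24 in the wild-type libraries. Here the unscaled values overlapped, and once the scale of the groups was taken into account the level was 2.37-fold lower in alg-2(ok304), a log2 ratio of -1.24. tba-1 and tba-2 share long stretches of sequence, so the split of reads between them is uncertain as well.

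tba-4 (WBGene00006530; chromosome II, 10918706 to 10920211, plus strand), a broadly expressed alpha tubulin, had 3.66, 4.30 and 8.22 fitted reads in the alg-2(ok304) libraries and 0.498, 0.695 and 0.756 in the wild-type libraries. Its log2 ratio was 1.13, a 2.18-fold higher level in alg-2(ok304), from a wild-type sum of 1.95 fitted reads. Sums this low came in narrow bands. In wild type, 652 genes had sums between 0.942 and 1.13 and the next 366 genes between 1.84 and 2.37, so that tba-4 lay in the second lowest band above 0. The sum of tbb-1 in alg-2(ok304), 2.39, lay in the fourth lowest band of that group, between 2.27 and 2.87.

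Of the 4 tubulin genes above 0 in both groups, 3 were at least 2-fold higher in alg-2(ok304), against 28.5% of all such genes, and 1 was at least 2-fold lower, against 31.1%. The middle portion of all such genes, between the quartiles, ran from -1.43 to 1.2. The ratios of tba-2 and tba-4 lay inside it, that of tba-1 at its edge and that of tbb-2 outside it. Among 2528 protein-coding genes, 19.1% had a higher ratio than tbb-2 and 27.5% a lower ratio than tba-2. None of these 4 ratios therefore stood out from the spread of the table. With scaling by the totals of every listed gene, the log2 ratio of tba-2 turned to 1.80, and those of tbb-2, tba-1 and tba-4 were 4.63, 4.25 and 4.17. By the totals of protein-coding genes, the base of FPM, they were 1.1 for tbb-2, 0.73 for tba-1 and 0.65 for tba-4, so that tbb-2 was the only 1 of the 3 still at least 2-fold higher. With a pseudocount of 2 tba-4, at 0.83, was under 2-fold as well.

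**Figure D2:**
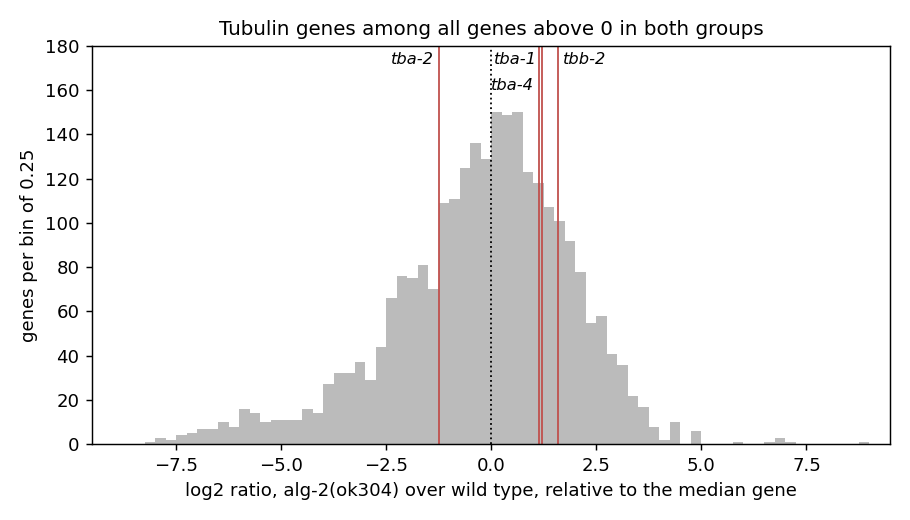
Histogram of the log2 ratio of alg-2(ok304) over wild type for the 2659 genes above 0 in both groups, in bins of 0.25, with red lines for the tubulin genes and a dotted line at the median gene, which is the scale used. tba-2 lies at -1.24, tba-4 at 1.13, tba-1 at 1.21 and tbb-2 at 1.58, all within the bulk of the distribution.

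Proportions among the tubulin genes do not depend on the scale between the groups. tbb-2, tba-1 and tba-4 kept similar proportions: tba-1 had 2.28 times the fitted reads of tba-4 in alg-2(ok304) and 2.15 times in wild type, and tbb-2 had 2.91 times those of tba-1 in alg-2(ok304) and 2.25 times in wild type. tba-2 did not follow them. It had 0.927 times the fitted reads of tba-1 in alg-2(ok304) and 5.07 times in wild type. The wild-type proportions rest on low sums, 4.19 fitted reads for tba-1 and 1.95 for tba-4. Any part of tbb-2 from the transgene was not separated.

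The tubulin signal was thus made up differently in the groups. In alg-2(ok304), tbb-2 held 54.5% of the 197 fitted reads on tubulin genes, tba-1 18.7%, tba-2 17.3%, tba-4 8.21% and tbb-1 1.21%, with mec-7 at 0. In wild type, mec-7 held 61.6% of the 95.8 fitted reads, tba-2 22.2%, tbb-2 9.82%, tba-1 4.37% and tba-4 2.03%. Alpha tubulins together held 44.3% in alg-2(ok304) and 28.6% in wild type. With mec-7 left out, a comparison added after the values were seen, the alpha share was 44.3% in alg-2(ok304) and 74.4% in wild type, so that the direction of the alpha share rested on mec-7.

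**Figure D3:**
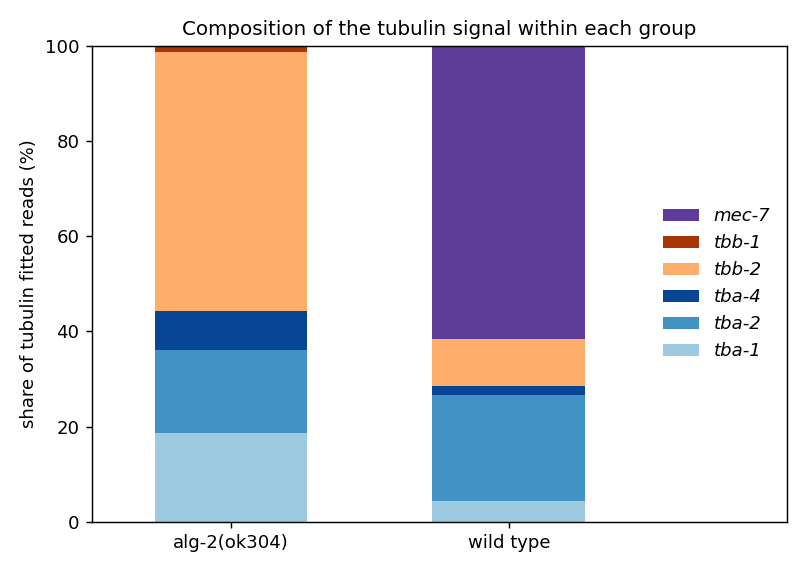
Share of each gene in the summed fitted reads of the 6 listed tubulin genes, in percent, with 1 bar per group; blue shades are alpha tubulins, orange and brown the general beta tubulins, purple mec-7. mec-7 fills 61.6% of the wild-type bar and none of the alg-2(ok304) bar, where tbb-2 fills 54.5%.

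Divided by the annotated exon length, the order of the levels within alg-2(ok304) was tbb-2 with 98.7 FPM per kilobase, then tba-1 with 33.8, tba-2 with 28.4, tba-4 with 16.0 and tbb-1 with 2.26. Within wild type it was mec-7 with 279, then tba-2 with 93.7, tbb-2 with 45.9, tba-1 with 20.4 and tba-4 with 10.2. Without a spread between replicates it cannot be said which neighbours in either order differ. The general beta tubulin tbb-2 had rank 378 among the 5456 protein-coding genes in alg-2(ok304) and rank 1039 in wild type.

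Summed over the 6 genes, the level was 274 FPM in alg-2(ok304) and 708 FPM in wild type. By the totals of every listed gene this direction turns. Without mec-7, also added after the values were seen, the sums were 274 FPM in alg-2(ok304) and 272 FPM in wild type. The excess of the wild-type sum was therefore as large as mec-7 itself. The actin genes act-1 to act-5, which encode the other main cytoskeletal polymer, served as the set most like the tubulins. They summed to 830 FPM in alg-2(ok304) and 3062 FPM in wild type. Of the 5, 4 were at least 2-fold lower in alg-2(ok304), against 31.1% of all genes above 0 in both groups. The median log2 ratio of the 5 genes was -1.66, which turns to 1.38 by the totals of every listed gene. act-4 alone had 492 FPM in alg-2(ok304) and 1568 FPM in wild type. It is also counted below as a body wall muscle marker, and act-5 as an intestinal marker, so the actin sums are not separate from those sets. Tubulin fitted reads were 0.330 times the actin fitted reads in alg-2(ok304) and 0.231 times in wild type. Without mec-7 they were 0.330 times in alg-2(ok304) and 0.0888 times in wild type, and neither ratio depends on the scale.

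**Figure D4:**
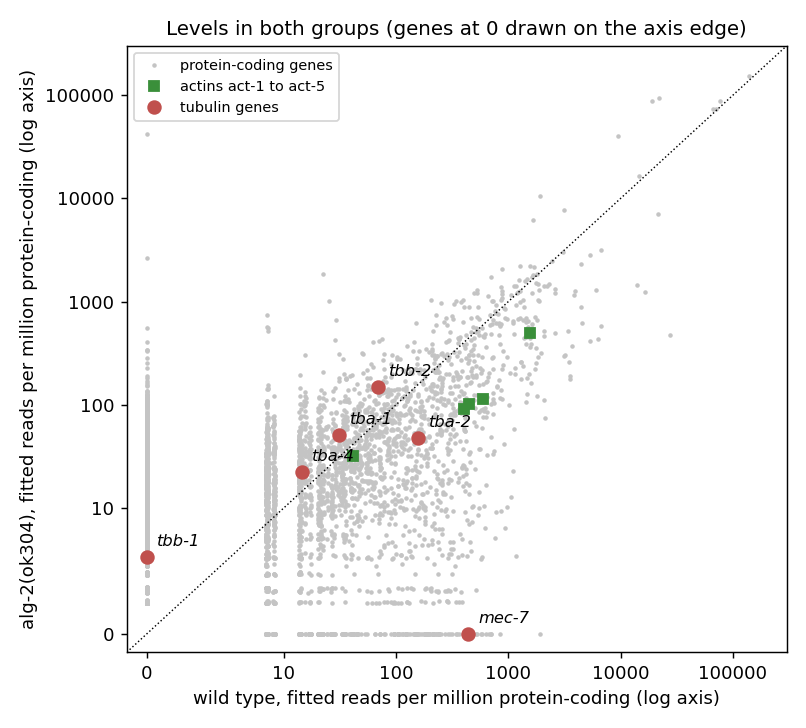
Level of each protein-coding gene in alg-2(ok304) (vertical) against wild type (horizontal), in FPM on log axes, with genes at 0 drawn at the tick marked 0 and a dotted line at equal levels. Tubulin genes are red circles and actins green squares; mec-7 lies at 436 FPM in wild type and at 0 in alg-2(ok304), while tbb-2, tba-1 and tba-4 lie just above the line and the actins below it.

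No other listed gene of touch sensation was at 0 in alg-2(ok304) and above 0 in wild type. Of 18 genes that act in touch sensation, 6 were listed. The 3 of them above 0 in both groups were each at least 2-fold higher in alg-2(ok304), against 28.5% of all such genes in the table. By the totals of protein-coding genes 2 of the 3 were. mec-17, the acetyltransferase that modifies the alpha tubulin MEC-12, had 27.5 fitted reads in alg-2(ok304) and 1.85 in wild type, a log2 ratio of 1.96. This wild-type sum lay in the second lowest band above 0. mec-8, an RNA-binding protein that regulates splicing, had 89.7 in alg-2(ok304) and 9.59 in wild type, a log2 ratio of 1.3. mec-5, a collagen of the touch neuron's surrounding matrix, had 67.4 in alg-2(ok304) and 6.17 in wild type, a log2 ratio of 1.52. mec-6, a subunit of the touch channel complex, and alr-1, a homeobox factor, were listed at 0 in wild type and at 11.8 and 7.38 fitted reads in alg-2(ok304), and mec-9 was at 0 in both groups; these 3 genes were named after their values were seen. Of 7 defining touch neuron markers, mec-17 was the only one listed, while mec-2, mec-3, mec-4, mec-10, mec-18 and unc-86 were not, so that the cells behind the mec-7 values cannot be checked against them.

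Of the 8 other tubulin genes looked for, 4 were listed, named here after their values were seen. ben-1, the beta tubulin through which benzimidazole drugs act, and the alpha tubulin tba-7 were listed at 18.4 and 14.7 fitted reads in alg-2(ok304) and at 0 in wild type. The alpha tubulin tba-6 was listed at 0 in alg-2(ok304) and at 1.88 in wild type, and tba-9 was at 0 in both groups. New tubulin is folded by prefoldin and the CCT chaperonin, whose subunits pointed both ways. Of 19 folding and cofactor genes, 11 were listed. Of the 6 above 0 in both groups, 2 were at least 2-fold higher in alg-2(ok304), against 28.5% of all such genes. Another 3 were at least 2-fold lower, against 31.1%. The median log2 ratio was -1.24, which turns to 1.80 by the totals of every listed gene. The chaperonin genes cct-7, cct-1 and cct-3 had 26.9, 6.71 and 13.3 fitted reads in alg-2(ok304), against 74.7, 43.2 and 34.7 in wild-type worms, whereas the prefoldin gene pfd-1 had 40.7 in alg-2(ok304) and 0.960 in wild type. The prefoldin genes pfd-6 and pfd-5, named after their values were seen, pointed the other way, at 0 in alg-2(ok304) and at 28.7 and 6.15 fitted reads in wild type. Since these chaperonin subunits belong to 1 complex, cct-5 was read as well, after its values were seen, and had 23.9 fitted reads in alg-2(ok304) and 1.1 in wild type. The wild-type sums of pfd-1 and cct-5 lay in the lowest band above 0. Among 11 genes of tubulin modifying enzymes 3 were listed, the others beside mec-17 being the deacetylase hda-6, with log2 ratio 0.14, and the acetyltransferase atat-2, with -0.92. The wild-type sum of atat-2, 1.84 fitted reads, lay in the second lowest band above 0.

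General tubulin genes are active in many tissues, so markers of these were read beside them. Of 20 neuronal markers 8 were listed, summing to 136 FPM in alg-2(ok304) and 107 FPM in wild type, with a median log2 ratio of 0.87 over the 6 above 0 in both groups, and rgef-1, whose promoter drives the tag, was not among the genes listed. All 15 body wall muscle markers were listed, summing to 2219 FPM in alg-2(ok304) and 7134 FPM in wild type. Of the 14 above 0 in both groups, 4 were at least 2-fold higher in alg-2(ok304), against 28.5% of all such genes. Another 7 were at least 2-fold lower, against 31.1%, and the median log2 ratio was -0.99. Of 15 hypodermal markers 10 were listed, summing to 2745 FPM in alg-2(ok304) and 4663 FPM in wild type. They pointed both ways, with 2 at least 2-fold higher and 3 at least 2-fold lower of the 7 above 0 in both groups. The shares over all such genes were 28.5% and 31.1%, and the median log2 ratio of the 7 was 0.05. Among the 3 lower genes was the collagen gene sqt-3, which fell from 2091 FPM in wild type to 111 FPM in alg-2(ok304). The 2 higher genes were dpy-7 and rol-6, with log2 ratios of 2.19 and 1.32. The marker col-14 was at 0 in wild type but reached 553 FPM in alg-2(ok304), so single genes differed strongly either way. All of these hypodermal genes were named after their values were seen. Of 15 intestinal markers 11 were listed, summing to 1011 FPM in alg-2(ok304) and 1219 FPM in wild type. Of the 6 above 0 in both groups, 1 was at least 2-fold higher and 2 were at least 2-fold lower, against 28.5% and 31.1% of all such genes. Another 4 of the 11 were at 0 in wild type only, against 31.9% of all listed genes. The direction of the intestinal sum rested on the actin gene act-5, with 101 FPM in alg-2(ok304) and 449 FPM in wild type. Germline markers, of which 7 of 15 were listed, summed to 55.1 FPM in alg-2(ok304) and 50.9 FPM in wild type, and sperm markers, 7 of 8 listed, to 36.8 FPM in alg-2(ok304) and 28.0 FPM in wild type. By the totals of every listed gene each of these sums would be higher in alg-2(ok304). In both groups the muscle, hypodermal and intestinal sums lay above the neuronal sum, over lists of unlike length. The part of these tissues in the tubulin values was not tested.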

How the data were processed

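RNA pulled down with RPL-18 that was tagged under a neuronal promoter was analysed, from 3 alg-2(ok304) and 3 wild-type libraries. Per the labels and the study's methods, the authors clipped adapters with cutadapt 2.10, mapped to WBcel235 by HISAT2 (2.2.0 in the labels, another version in the study's methods), assigned reads to genes in featureCounts (Subread 2.0.0) and ran edgeR 3.11 for the comparison. The deposited library columns are a signal, the fitted reads of the authors' model, and not counts. The authors also deposited an average log2 CPM, used here only to look for the library sizes, and a p-value and a false discovery rate of their own comparison, which were not used. Samples were mapped to columns by group and number in the labels; the columns of the mutant strain carry the strain number of alg-2(ok304) in the study's strain list, but name alg-1.

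The planned test needed counts and was replaced by a description: sums over the 3 libraries of a group, levels in fitted reads per 1000000 (FPM) on protein-coding genes more than 2000 bases from ribosomal RNA genes, and log2 ratios, without a pseudocount, relative to the median of genes above 0 in both groups. A 2-fold difference was used to count genes. Sequencing depth is unknown here, and no precision can be given for single values. Genes were annotated with Ensembl release 115 (WBcel235), in which 5733 of the 5739 genes had an entry. The members and gene lists were chosen with earlier results of these data known. Besides the members, genes were named from the lists as the highest 4 above 0 in both groups and those at 0 in 1 group with at least 30 fitted reads in the other; further names are marked as chosen after their values were seen. Other scales, pseudocounts, exon lengths and sets of genes were tried. Genes of like pattern were not sought, since each gene has 2 independent levels. Sequences were not analysed here. Python 3.11.15, numpy 2.4.6 and pandas 2.3.3 were used.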

Additional observations from a re-analysis of the deposited data

How the results depend on the processing

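No error is known for these values, so a log2 ratio was read as unmoved within 0.1 and other values within 5%. The log2 ratios of tbb-2, tba-1, tba-4 and tba-2 stayed within this limit when the scale was the trimmed mean of log2 ratios or the median of genes with a mean of at least 10 fitted reads, and with a pseudocount of 0.5. By the totals of all genes they were 4.63, 4.25, 4.17 and 1.80, so that tba-2 reversed; by the totals of protein-coding genes away from ribosomal RNA they were 1.1, 0.73, 0.65 and -1.72, with tba-1 and tba-4 then under 2-fold. With a pseudocount of 2 the values of tba-1 and tba-4 were 1.04 and 0.83. Without tbb-2 the touch neuron share in wild type was 68.3%, and the alpha share was 97.3% in alg-2(ok304) and 31.7% in wild type; without mec-7 the alpha share in wild type was 74.4%. Division by exon length left the alpha and touch neuron shares within this limit but moved shares of single genes, such as tba-4 to 2.28% in wild type. The summed tubulin level was 9.35 per 1000000 of all genes in alg-2(ok304) and 2.1 in wild type, 62.6 in alg-2(ok304) and 100.3 in wild type per 1000000 of genes other than ribosomal RNA, and 125 FPM in alg-2(ok304) and 638 FPM in wild type without tbb-2, so that its direction turned with the totals of all genes; without mec-7 it was 272 FPM in wild type. These movements follow from the construction of each setting. Other tests and leaving out replicates need counts and were not run. No paired analysis was possible because the columns hold 1 fitted level per group. The authors' average log2 CPM did not yield a scale, since 953 genes at 0 in all 6 libraries had averages of up to 1.77.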

Other observations

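Microtubule motors and associated proteins, which work on the tubulin polymer, were read from a list of 33 genes, of which 15 were listed. Of the 9 above 0 in both groups, 1 was at least 2-fold higher and 5 were at least 2-fold lower in alg-2(ok304), against 28.5% and 31.1% of all such genes, with a median log2 ratio of -1.63 that turns to 1.41 by the totals of every listed gene. The ankyrin unc-44, which organizes the axon's cytoskeleton, had 163 fitted reads in alg-2(ok304) and 17.1 in wild type, a log2 ratio of 1.32. The dynein heavy chain gene dhc-1 had 25.9 fitted reads in alg-2(ok304) and 21.1 in wild type, a log2 ratio of -1.63, and the kinesin heavy chain gene unc-116 had 11.1 in alg-2(ok304) and 12.1 in wild type, a log2 ratio of -2.05. zyg-9, which promotes microtubule growth at the spindle, had 2.54 fitted reads in alg-2(ok304) and 14.9 in wild type, a log2 ratio of -4.48. lis-1, a dynein regulator, and ptrn-1, which protects microtubule minus ends, were listed at 56.3 and 34.0 fitted reads in alg-2(ok304) and at 0 in wild type. The kinesin gene unc-104, which carries synaptic vesicle precursors, had 6.86 fitted reads in alg-2(ok304) and 1.90 in wild type, a log2 ratio of -0.08. Its wild-type sum lay in the second lowest band above 0, and it was named after its values were seen.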
